A study of Mus musculus with 28 samples.

Results

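The genes described here are 7 members of the T-box family of transcription factors, Tbx2, Tbx3, Tbx4, Tbx5, Tbx15, Tbx18 and Tbx20, of which TBX5 was also delivered to the cells by virus. They were chosen by name from the platform annotation, which holds 1 probe set for each of them. They are 7 of 19938 genes with a named probe set, and all 7 are among the 12211 genes tested, a filter that asked for a signal over the array's median in 3 or more arrays. Tbx20 passed that filter only through arrays of cells given Hand2 (5 of 28 arrays above the median), and the other members were above it on 28 of 28 arrays.

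T-box proteins bind a shared DNA element through the T-box domain and act as activators or repressors depending on the member and its partners. In the developing heart, TBX5 and TBX20 work with GATA4 and NKX2-5 on genes of the working myocardium, while TBX2 and TBX3 bind the same elements and repress chamber genes in the atrioventricular canal and conduction system. TBX18 marks the epicardium and the sinus horns, and TBX4 and TBX15 are best known from hindlimb and from skin, skeleton and fat.

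The study holds 28 single-channel arrays of mouse RNA. The starting cells were mouse embryonic fibroblasts (MEFs), and the study compared lentiviral combinations of cardiac factors meant to turn them into cardiomyocyte-like cells. Letters name the factors: G is GATA4, M MEF2C, T TBX5, N NKX2.5, H Hand2 and D MYOCD. Labels call the samples independent biological replicates. The groups were GMT (5 arrays), NGMT (6 arrays), HGMT (3 arrays), HNGMT (3 arrays), DMT (4 arrays), DMNT (4 arrays) and MEFs given no factor, named 0F (3 arrays). All 6 combinations thus carried TBX5 and MEF2C, delivered by tetO viruses with the activator rtTA and a TroponinT-GCaMP5-Zeo reporter. Doxycycline (2 μg/mL) turned the factors on. Zeocin (300 μg/mL, 7 days) then selected cells with an active troponin T promoter, which were collected on day 21. Titles and protocol describe 0F as non-transduced MEFs collected on day 21, although the source name calls all 28 samples selected. On that reading a difference from 0F covers virus, medium, doxycycline and selection as well as the factors, and these cannot be told apart.

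The arrays fell into 3 sets of nearly equal value distribution, which the labels do not name. Set 1 (8 arrays) holds all 0F arrays, GMT replicates 1 and 2 and NGMT replicates 1 to 3; set 2 (15 arrays) holds the remaining GMT and NGMT arrays, HGMT, HNGMT and DMT replicates 1 to 3; set 3 (5 arrays) holds DMT replicate 4 and DMNT. Array medians were 6.68 to 6.75 log2 in set 1, 6.86 to 6.95 in set 2 and 7.64 to 7.65 in set 3. No array of HGMT, HNGMT, DMT or DMNT shares a set with 0F, so their differences from 0F pass through GMT and NGMT, and those of DMNT pass also through DMT replicate 4 alone. In set 3, 76.65% of genes had an identical value on at least 2 of 5 arrays, against 35.13% in set 2 and 39.91% in set 1, which hold more arrays. Tbx2 was identical on all 5 of these arrays, so the spread in set 3 is understated. Of the marker genes, Tnnt2, which encodes the selected troponin T, was 5.10 ± 0.08 log2 higher in GMT than in 0F. The summed fibroblast markers reached 13.6 to 13.8 in set 1 GMT and 14.8 to 14.9 in 0F, adipocyte sums 9.5 to 9.8 in GMT and 14.2 to 14.3 in 0F, and macrophage sums 9.5 to 9.6 in GMT and 12.2 to 12.6 in 0F. Of 7 cardiomyocyte markers, 6 were higher and 0 lower in GMT than in 0F (35.9% and 24.1% of all genes). Of the limb and skeletal muscle markers, 1 was tested, and it was not called in GMT minus 0F. In bulk RNA, fewer cells of a type and less RNA per cell cannot be told apart.

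The promoters of Tbx18 and Tbx20, the members with the largest differences in these arrays, are shown first, beside that of Nppa, the atrial natriuretic peptide gene that textbooks give as a direct T-box target. They are RefSeq windows on build GRCm38.p6, written 5′ to 3′ on the gene's strand from 250 bases before to 50 bases after the start. Capitals mark the T-box core GGTGTG, the NKX core AAGTG and the GATA core GATA, each searched on both strands and therefore also printed as its reverse complement.
Tbx18 (chr9:87731211-87731510, minus strand): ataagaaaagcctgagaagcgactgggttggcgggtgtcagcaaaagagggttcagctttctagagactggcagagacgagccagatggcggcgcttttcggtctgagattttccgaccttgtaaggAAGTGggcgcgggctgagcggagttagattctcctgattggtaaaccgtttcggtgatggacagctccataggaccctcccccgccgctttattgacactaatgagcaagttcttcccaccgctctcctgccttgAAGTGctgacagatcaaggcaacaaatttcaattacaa
Tbx20 (chr9:24774254-24774553, minus strand): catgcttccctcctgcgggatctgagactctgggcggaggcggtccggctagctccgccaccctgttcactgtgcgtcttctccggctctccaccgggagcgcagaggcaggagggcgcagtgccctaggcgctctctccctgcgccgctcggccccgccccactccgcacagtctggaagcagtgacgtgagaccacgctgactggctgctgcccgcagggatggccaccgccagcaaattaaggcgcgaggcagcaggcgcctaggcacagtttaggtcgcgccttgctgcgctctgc
Nppa (chr4:148000472-148000771, plus strand): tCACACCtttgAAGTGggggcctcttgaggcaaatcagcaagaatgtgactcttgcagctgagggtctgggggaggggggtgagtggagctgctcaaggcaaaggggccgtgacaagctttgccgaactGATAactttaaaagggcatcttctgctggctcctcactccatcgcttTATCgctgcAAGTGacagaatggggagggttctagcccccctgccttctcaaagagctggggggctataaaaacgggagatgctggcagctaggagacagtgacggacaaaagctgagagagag
The Nppa window holds 1 T-box core at base -249 on the minus strand, NKX cores at -239 and -65, and GATA cores at -121 and -74, counted from the start site. The Tbx18 window holds NKX cores at -123 and 13 and no T-box or GATA core. The Tbx20 window holds none of these letters, nor an E-box (CANNTG, the class of site that Hand2 binds), a MEF2 box or a CArG box, and 68.3% of its bases are G or C. Of 32851 promoters of this length, 19.0% hold the T-box core, 46.4% the NKX core, 57.9% the GATA core, 72.3% an E-box, 3.19% a MEF2 box and 1.63% a CArG box. An E-box at -66 in Nppa overlaps its second NKX core. These are matches of letters and not shown to be bound, and of the members only Tbx4, Tbx18 and Tbx20 are in the promoter table used (3 of 7).

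**Figure D1:**
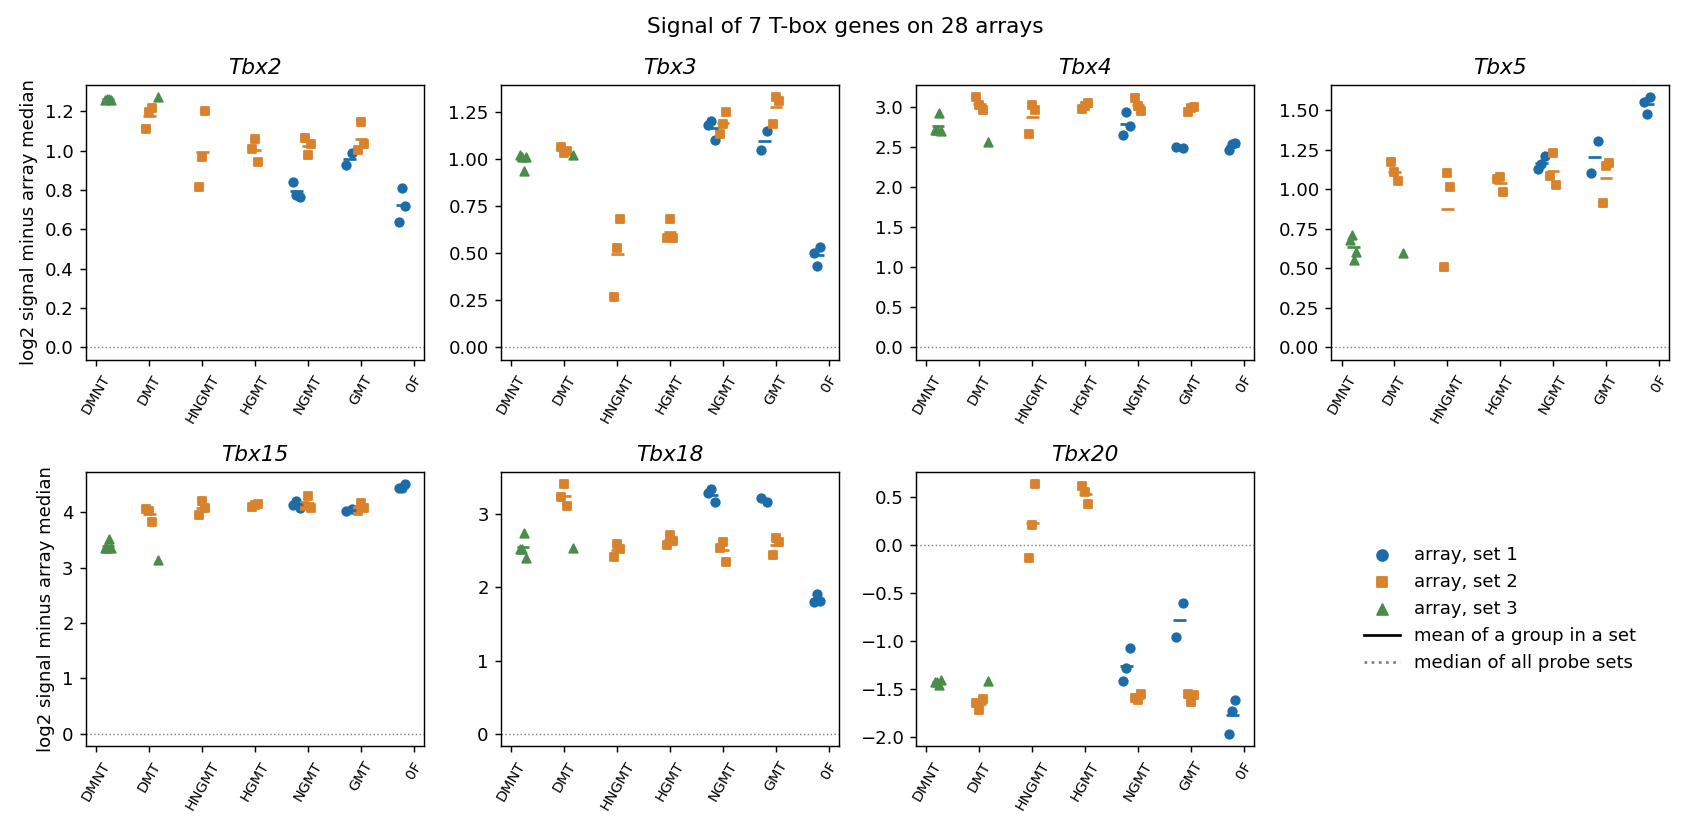
Each point is 1 array; the vertical axis is log2 signal minus the array's median of all probe sets, and short bars are means of a group within a set. Tbx20 lies above the dotted array median on 5 of 6 arrays that received Hand2 and below it on all others, Tbx3 is low in HNGMT, HGMT and 0F, and Tbx18 is lowest in 0F.

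Tbx5, the delivered factor and an activator of atrial and ventricular genes, read lower and not higher in cells that received it. In set 1, its signal was 7.849 and 8.0004 log2 on the GMT arrays and 7.86, 7.89 and 7.90 on the NGMT arrays, against 8.31, 8.21 and 8.26 in 0F. No array of either combination reached the lowest 0F array. Across the full fit, Tbx5 differed from 0F by -0.36 ± 0.10 log2 in GMT (SE; limma, adjusted p = 0.0045) and by -0.36 ± 0.10 in NGMT (adjusted p = 0.0027). The differences were -0.38 ± 0.13 in HGMT, -0.56 ± 0.13 in HNGMT and -0.36 ± 0.13 in DMT, all 3 past the threshold, and -0.31 ± 0.19 in DMNT (95% interval -0.71 to 0.09), which was not. Without HNGMT replicate 1 the HNGMT value was -0.37 and the DMNT value passed (-0.31, adjusted p = 0.046), and DMT lost its call without 0F replicate 1 (-0.33, adjusted p = 0.054) or DMT replicate 3 (-0.33, adjusted p = 0.058). The DMT call was also lost with a 2-level series term (-0.29, adjusted p = 0.088). Whether this probe set reads the delivered TBX5 sequence was not stated in the labels, so its signal cannot be read as the level of the virus-borne transcript.

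Among the 6 combinations Tbx5 could not be ordered. In set 2, it read 8.01, 7.97 and 7.89 log2 in HGMT, 7.39, 8.02 and 7.92 in HNGMT, 8.04, 7.98 and 7.92 in DMT, 7.95, 8.11 and 7.91 in NGMT, and 7.78, 8.02 and 8.08 in GMT. All groups overlapped, with HNGMT replicate 1 lowest. The 7 differences between combinations ran from -0.20 to 0.06 log2 and none passed the threshold, which does not show that they were equal: the interval was -0.40 to 0.00 for HNGMT minus NGMT and -0.16 to 0.16 for NGMT minus GMT. Without HNGMT replicate 1 the HNGMT minus NGMT value was -0.01, and without HNGMT replicate 2 it was -0.32 and passed (adjusted p = 0.016), as did HNGMT minus HGMT at -0.30 (adjusted p = 0.047).

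The other delivered factors give the same check of the labels. Mef2c, carried by every combination, also read lower than in 0F, by -0.77 ± 0.08 log2 in GMT. Hand2 read 9.97, 10.15 and 10.09 log2 in HGMT, against 7.17, 7.42 and 7.45 in set 2 GMT, and Myocd 9.57, 9.58 and 9.80 in DMT, against 6.01, 6.07 and 6.09 in set 2 GMT. Nkx2-5 differed by -0.03 in NGMT minus GMT and was not called. Gata4 was 0.22 ± 0.08 log2 higher in GMT than in 0F. In these comparisons the Hand2 and Myocd probe sets followed the labels on every array, and those of Tbx5, Mef2c and Nkx2-5 were not higher with delivery.

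Against 0F, members of the family moved in both directions. In GMT 4 of 7 members were higher and 2 lower than in 0F, where 60.1% of all tested genes were called (35.9% higher and 24.1% lower). NGMT had 4 higher and 2 lower (all genes 60.8%, 36.6% higher and 24.2% lower), and DMT also 4 and 2 (56.4%, 34.6% and 21.8%). HGMT had 2 and 2 (51.1%, 29.9% and 21.2%), as did HNGMT (49.7%, 26.5% and 23.2%). DMNT had 2 and 0 (41.4%, 26.4% and 15.0%), with 5 members at an unadjusted p under 0.05 in limma. With 7 members, Tbx20 among them, nothing is read from these counts about the family. The comparisons share the 3 0F arrays. The median over the members was 0.19 log2 in GMT minus 0F, against 0.05 over all tested genes.

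**Figure D2:**
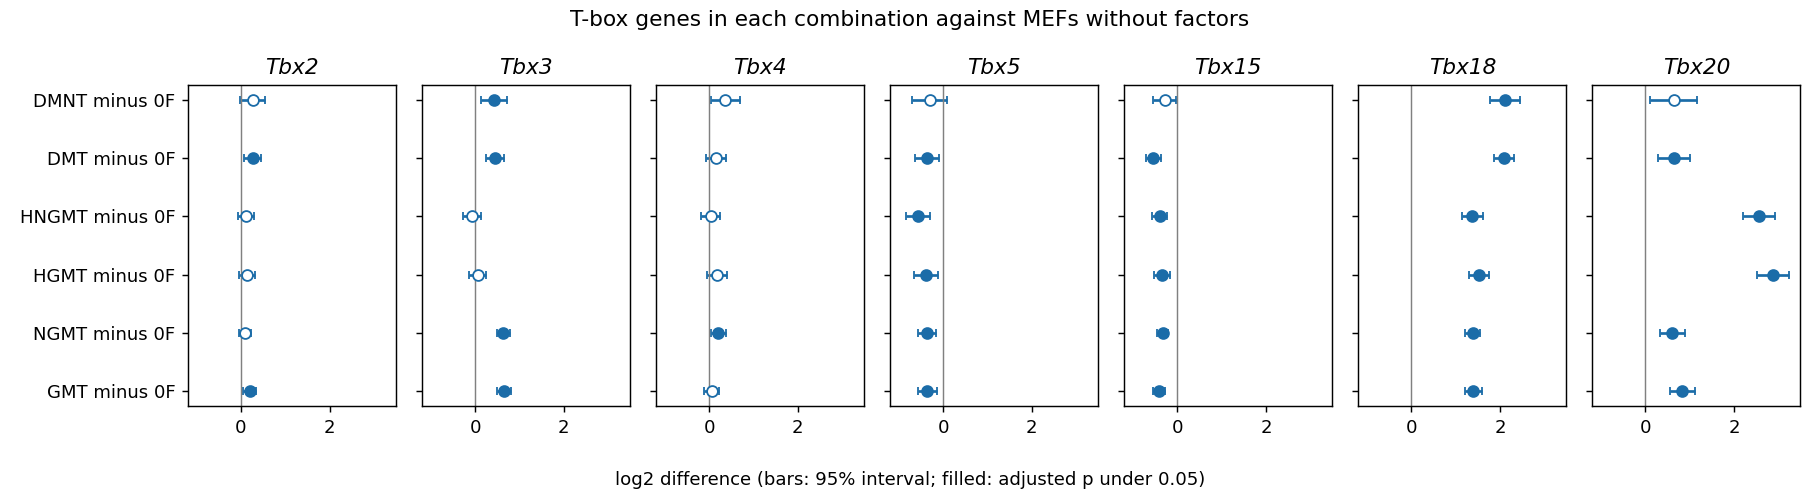
The log2 difference of each combination minus 0F, with its 95% interval, for each of the 7 genes; filled points have an adjusted p under 0.05. Tbx18 lies between 1.38 and 2.11 in all 6 combinations, Tbx5 and Tbx15 lie below 0, and Tbx20 reaches 2.88 in HGMT and 2.57 in HNGMT.

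Tbx20, a factor that chamber myocardium needs for growth and contraction, separated cells given Hand2 from all others. In set 2, its signal was 7.57, 7.45 and 7.33 log2 in HGMT, against 5.32, 5.24 and 5.35 in GMT. With NKX2.5 added, it was 6.75, 7.12 and 7.54 log2 in HNGMT, against 5.27, 5.25 and 5.33 in NGMT. Every Hand2 array exceeded every array without Hand2, with HNGMT replicate 1 lowest among the 6. The fitted difference was 2.05 ± 0.13 log2 for HGMT minus GMT (adjusted p = 1.6e-11) and 1.96 ± 0.13 for HNGMT minus NGMT (adjusted p = 6.2e-11), and within set 2 alone 2.15 and 1.85. Because Tbx20 entered the tested genes only through these arrays, its being called in them is in part set by the filter.

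In combinations without Hand2, Tbx20 stayed below the array median but differed from 0F. In set 1, it read 5.78 and 6.09 log2 in GMT and 5.31, 5.45 and 5.61 in NGMT, against 4.78, 4.999 and 5.06 in 0F. All arrays of both combinations were above the highest 0F array. The fitted difference from 0F was 0.84 ± 0.14 log2 in GMT, 0.61 ± 0.13 in NGMT and 0.64 ± 0.17 in DMT, all past the threshold, and 0.64 ± 0.26 in DMNT (interval 0.10 to 1.17, adjusted p = 0.051). The DMNT value passed, at 0.64 to 0.70, without 0F replicate 3, NGMT replicate 1, 2 or 6, or HNGMT replicate 1 or 3. HGMT was 2.88 ± 0.17 and HNGMT 2.57 ± 0.17 log2 above 0F. When all arrays were quantile-normalized together with no set term, the DMT difference was 0.19 and NGMT 0.36 log2 and neither was called.

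From high to low, the fitted order for Tbx20 was HGMT, HNGMT, GMT, DMT, DMNT, NGMT and 0F. HNGMT and GMT are the neighbours that differed beyond the error at the upper end (1.73 ± 0.13 log2, adjusted p = 4.3e-10, 35.2% of all genes called, in a pair added after the data were seen), as did NGMT and 0F. The call of HNGMT minus GMT is in part set by the filter, which Tbx20 passed only through arrays with Hand2. HNGMT and HGMT differed by -0.32 ± 0.14 log2, not past the threshold (interval -0.60 to -0.03). That value was -0.52 and passed without HNGMT replicate 3, and was -0.12 without HNGMT replicate 1. No pair among GMT, DMT, DMNT and NGMT passed the threshold, although the interval of NGMT minus GMT did not include 0 (-0.22 ± 0.10 log2, interval -0.44 to -0.01, adjusted p = 0.42; -0.48 in set 1 alone and -0.02 in set 2 alone). All groups without Hand2 were below the array median on every array, and whether these signals lie above background is not given, so their order is one of low signals.

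Other genes rose with Hand2 beside Tbx20. Of the epicardial and mesothelial markers, 4 of 7 tested were higher and 2 lower in HGMT than in GMT (12.2% and 14.5% of all genes). Wt1, an epicardial regulator, read 7.79, 7.65 and 7.35 log2 in HGMT, against 6.29, 6.06 and 6.09 in GMT. Wt1 was above the array median on 7 arrays, all those of HGMT and HNGMT and DMNT replicate 4. Its place among the tested genes therefore rests mainly on arrays with Hand2, as for Tbx20. The summed epicardial markers spanned 11.4 to 11.7 log2 in HGMT and 11.3 to 11.6 in HNGMT, against 10.99 to 11.07 in GMT and 10.67 to 10.98 in NGMT, with Tcf21 below the median on every array. Endothelial sums were 8.59 to 8.78 in HGMT, against 7.78 to 7.98 in GMT, with Pecam1 and Kdr below the median throughout, and adipocyte sums 12.65 to 13.01 in HGMT, against 11.1 to 11.7 in GMT. Macrophage sums in HNGMT were 11.6, 11.2 and 9.86 on replicates 1, 2 and 3, against 9.79 to 10.5 in set 2 NGMT. The part of these cell types in the Tbx20 difference was not tested.

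Tbx3, a repressor that keeps conduction tissue from chamber differentiation, went the other way with Hand2. In set 2, it read 7.53, 7.58 and 7.48 log2 in HGMT, against 8.06, 8.21 and 8.23 in GMT. It read 7.15, 7.44 and 7.59 in HNGMT, against 7.999, 8.06 and 8.14 in NGMT. No Hand2 array reached the lowest array without Hand2, and HNGMT replicate 1 was again the lowest. The differences were -0.60 ± 0.07 log2 for HGMT minus GMT (adjusted p = 6.7e-07) and -0.71 ± 0.07 for HNGMT minus NGMT (adjusted p = 6.8e-08), and -0.59 for the second without HNGMT replicate 1.

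Compared with 0F, Tbx3 rose only where Hand2 was absent, as a description of the calls; the comparisons with GMT and NGMT above are the tests of that difference. In set 1, it read 7.79 and 7.84 log2 in GMT and 7.91, 7.93 and 7.79 in NGMT, against 7.25, 7.17 and 7.21 in 0F, with no overlap. The rise over 0F was 0.66 ± 0.08 log2 in GMT, 0.63 ± 0.07 in NGMT, 0.45 ± 0.10 in DMT and 0.43 ± 0.14 in DMNT, all called. HGMT differed from 0F by 0.06 ± 0.10 (interval -0.13 to 0.26) and HNGMT by -0.07 ± 0.10 (-0.27 to 0.12), neither called. DMT was lower than GMT by -0.21 ± 0.07 log2 (adjusted p = 0.039), a call lost in 14 of 40 alternatives, among them set 2 alone (-0.25, adjusted p = 0.096). It was also lost, at -0.18 to -0.22, without DMT replicate 1, 2 or 3, GMT replicate 4 or 5, or NGMT replicate 3 or 6. HNGMT minus HGMT was not called for Tbx3 but passed without HNGMT replicate 3 (-0.23, adjusted p = 0.026).

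Hcn4, the pacemaker channel gene, was 0.85 ± 0.10 log2 higher in HGMT than in GMT and 0.64 ± 0.10 higher in HNGMT than in NGMT, where Tbx3 was lower, while Shox2, a sinus node regulator, was lower by -0.33 ± 0.10 and -0.43 ± 0.10. Of 3 tested pacemaker and conduction genes, 1 was higher and 1 lower in HGMT than in GMT (12.2% and 14.5% of all genes). In HNGMT minus NGMT, 1 was higher and 2 lower (8.73% and 22.9% of all genes).

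**Figure D3:**
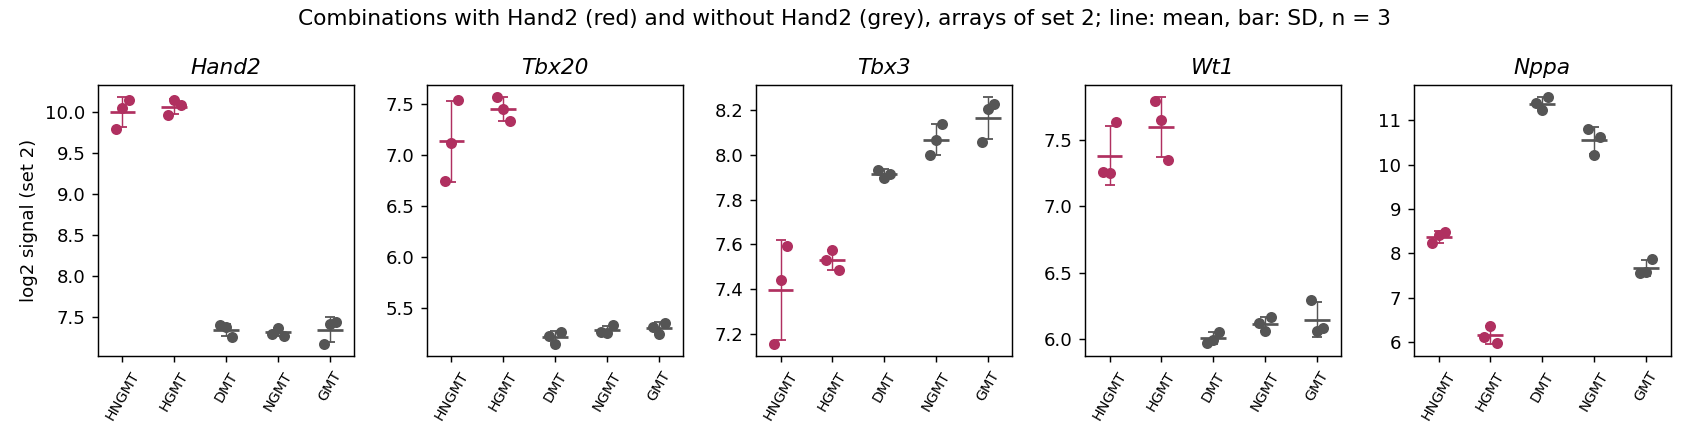
Log2 signal on the 15 arrays of set 2, red for combinations with Hand2 and grey for those without; lines are means and bars SD over 3 arrays. Tbx20 and Wt1 are above, and Tbx3 below, all arrays without Hand2, and Nppa differs with every factor added.

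Tbx2, the closest relative of Tbx3 and also a repressor of chamber genes, changed little. In set 1, it read 7.67 and 7.68 log2 in GMT, against 7.39, 7.54 and 7.40 in 0F. NGMT, at 7.57, 7.51 and 7.46, overlapped 0F. The difference was 0.19 ± 0.07 log2 in GMT (adjusted p = 0.022) and 0.26 ± 0.09 in DMT (adjusted p = 0.015), and between 0.09 and 0.26 in the other 4 combinations, which were not called. The GMT call was lost in 6 of 39 alternatives, among them those without 0F replicate 1 (0.17, adjusted p = 0.084) and without 0F replicate 3, GMT replicate 1 or GMT replicate 2. HNGMT minus 0F, at 0.12, became 0.21 and was called without HNGMT replicate 1, and DMNT minus 0F, at 0.26, was called without HNGMT replicate 1 or 3. Between combinations Tbx2 ran from -0.10 to 0.17 log2 with no call.

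Tbx18, a repressor expressed in the epicardium, sinus horns and mural cells, rose in every combination. In set 1, it read 9.97 and 9.86 log2 in GMT and 10.02, 10.07 and 9.86 in NGMT, against 8.55, 8.65 and 8.50 in 0F. The lowest array of the combinations was more than 1 log2 unit above the highest of 0F. The difference from 0F was 1.399 ± 0.09 log2 in GMT, 1.38 ± 0.08 in NGMT, 1.53 ± 0.11 in HGMT, 1.38 ± 0.11 in HNGMT, 2.09 ± 0.11 in DMT and 2.11 ± 0.17 in DMNT, each called. With all arrays quantile-normalized together and no set term these values were 0.65 to 1.23 log2, each called.

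MYOCD in place of GATA4 went with a further rise of Tbx18. In set 2, it read 10.11, 10.28 and 9.98 log2 in DMT, against 9.31, 9.55 and 9.53 in GMT, with no overlap. DMT minus GMT was 0.69 ± 0.08 log2 (adjusted p = 8.6e-07; 0.66 in set 2 alone) and DMNT minus NGMT 0.73 ± 0.15 (adjusted p = 0.0024), the second resting on DMT replicate 4 as the link between sets. With all arrays quantile-normalized together and no set term, DMT minus GMT was 0.31 and not called, and DMNT minus NGMT was -0.03. Which of these changes moved the values was not tested.

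The fitted order for Tbx18 was DMNT, DMT, HGMT, GMT, NGMT, HNGMT and 0F. DMT was 0.56 ± 0.09 log2 above HGMT (adjusted p = 2.0e-05, 36.9% of all genes called, an added pair), and HNGMT stood above 0F. The neighbours DMNT and DMT differed by 0.02 (interval -0.23 to 0.28), and no neighbouring pair among HGMT, GMT, NGMT and HNGMT passed the threshold. Hand2 therefore gave no detectable change in Tbx18, at 0.13 ± 0.08 log2 for HGMT minus GMT (interval -0.04 to 0.31) and -0.01 ± 0.08 for HNGMT minus NGMT (-0.18 to 0.17).

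Markers of 2 cell types that express Tbx18 were set beside it. Epicardial and mesothelial sums were 13.2 to 13.3 log2 in set 1 GMT and 13.3 in NGMT, against 9.20 to 9.26 in 0F. In GMT minus 0F, 6 of 7 tested markers rose (35.9% of all genes). In set 2, the epicardial and mesothelial sums were lowest in DMT, at 9.59 to 9.64, against 10.99 to 11.07 in GMT, whereas Tbx18 was highest in DMT. Smooth muscle sums ran with Tbx18 in that comparison, at 13.84 to 14.03 in DMT, against 11.2 to 11.4 in GMT. All 4 smooth muscle markers were called higher in DMT than in GMT (9.84% of all genes). The part of either cell type in the Tbx18 values was not tested.

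Tbx15, a regulator of skeletal and skin mesenchyme that is also expressed in fat, fell in the combinations. In set 1, it read 10.77 and 10.75 log2 in GMT and 10.87, 10.94 and 10.77 in NGMT, against 11.19, 11.17 and 11.19 in 0F, with no overlap. The difference was -0.41 ± 0.07 log2 in GMT, -0.33 ± 0.06 in NGMT, -0.34 ± 0.08 in HGMT, -0.40 ± 0.08 in HNGMT and -0.54 ± 0.08 in DMT, each called. In DMNT it was -0.29 ± 0.12 (interval -0.54 to -0.03, adjusted p = 0.069), which passed without DMNT replicate 3 (-0.33, adjusted p = 0.035), DMT replicate 1 or HNGMT replicate 1. None of its differences was called in the 7 planned comparisons between combinations. In pairs added after the data were seen, Tbx15 was lower in DMT than in NGMT (-0.21 ± 0.06 log2, adjusted p = 0.017, 20.1% of all genes called) and than in HGMT (-0.20 ± 0.07, adjusted p = 0.021). All 4 tested adipocyte markers were lower in GMT than in 0F (24.1% of all genes), and their part in the Tbx15 fall was not tested.

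Tbx4, the hindlimb member, showed 1 call, against 5 with all arrays quantile-normalized together and no set term (0.34 to 0.51 log2 above 0F in NGMT, HGMT, HNGMT, DMT and DMNT). In set 1, it read 9.38, 9.67 and 9.45 log2 in NGMT, against 9.22, 9.26 and 9.23 in 0F, while GMT at 9.24 and 9.18 overlapped 0F. NGMT minus 0F was 0.21 ± 0.08 log2 (adjusted p = 0.033). It was 0.13 and not called without NGMT replicate 2, the highest array, and also lost its call without NGMT replicate 3 or any 1 of the 3 0F arrays. The other 5 differences from 0F ran from 0.03 to 0.36 log2, the highest in DMNT, which passed without HNGMT replicate 1 (adjusted p = 0.026). HNGMT minus NGMT passed without HNGMT replicate 2 (-0.25, adjusted p = 0.031).

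Factor by factor, 7 of 49 member differences between combinations were called. With Hand2 added, Tbx20 was called higher and Tbx3 lower in both backgrounds, 2 of 7 members each time, the Tbx20 call being in part set by the filter. Of all genes, 26.7% were called in HGMT minus GMT (12.2% higher and 14.5% lower) and 31.7% in HNGMT minus NGMT (8.73% and 22.9%), shares close to 2 of 7, so nothing is read from the count. MYOCD for GATA4 changed Tbx18 and Tbx3 in DMT minus GMT (18.6% of all genes, 9.84% higher and 8.75% lower) and Tbx18 in DMNT minus NGMT (6.27%). Adding NKX2.5 gave no call among 7 members in NGMT minus GMT (1.63% of all genes), HNGMT minus HGMT (0.622%) or DMNT minus DMT (0.0737%). At an unadjusted p under 0.05 limma gave 2 members in NGMT minus GMT (Tbx20 and Tbx4), 1 in HNGMT minus HGMT (Tbx20) and 1 in DMNT minus DMT (Tbx15). Fits of single sets gave no member call for NKX2.5 either, with Tbx20 at -0.48 log2 in set 1 NGMT minus GMT (adjusted p = 0.053). The last comparison rests on a single DMT array.

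**Figure D4:**
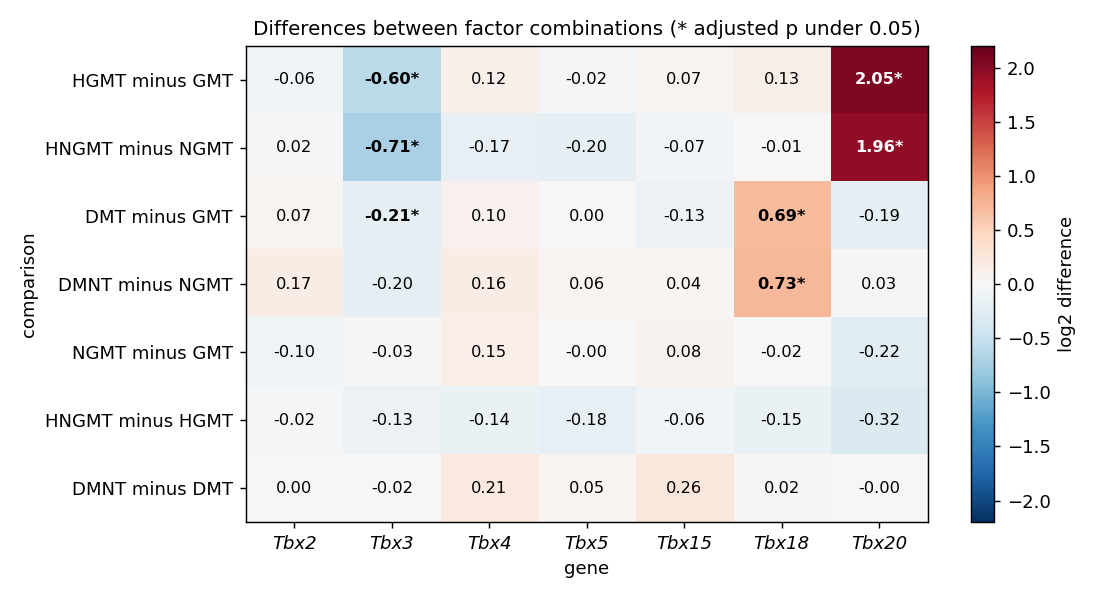
Fitted log2 difference of each member (columns) in each comparison of combinations (rows), with an asterisk for an adjusted p under 0.05. The largest values are those of Tbx20 with Hand2, 2.05 and 1.96, and those of Tbx18 with MYOCD are 0.69 and 0.73.

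Whether the effect of NKX2.5 depended on Hand2 or on MYOCD was tested by interaction contrasts. None of the 14 member contrasts was called; the lowest adjusted p was 0.22, for Tbx4 at -0.29 ± 0.11 log2 in the Hand2 contrast. No gene of 12211 was called for Hand2 (0%) and 1 for MYOCD (0.00819%), and at an unadjusted p under 0.05 limma gave 1 member and 0 members. For Tbx20 the Hand2 contrast was -0.09 ± 0.17 log2 (interval -0.45 to 0.27). NGMT minus GMT in set 2 minus that in set 1 gave no call either, with Tbx20 at 0.46 ± 0.19 and Tbx4 at -0.25 ± 0.12 unadjusted (0.639% of all genes called).

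The same combination read differently between sets. Of the members, Tbx18 was lower in set 2 than in set 1, by -0.45 ± 0.10 log2 in GMT and -0.60 ± 0.09 in NGMT. Tbx4 was higher in set 2, by 0.65 ± 0.09 and 0.40 ± 0.08. In GMT 4 members were higher and 2 lower in set 2 (62.0% of all genes called, 45.0% higher and 17.0% lower) and in NGMT 4 and 1 (64.9%, 48.4% and 16.5%). Tbx5 was the member called in neither, at 0.04 ± 0.12 and 0.11 ± 0.11. Set and any difference between experiments cannot be told apart.

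Tbx3 and Tbx5 are neighbours on mouse chromosome 5 and Tbx2 and Tbx4 on chromosome 11, with 0 protein-coding genes between them in the RefSeq table. Tbx3 was higher and Tbx5 lower in GMT than in 0F. Tbx2 and Tbx4 both lay above 0 in all 6 differences from 0F, at 0.09 to 0.26 and 0.03 to 0.36 log2, of which 2 and 1 were called. Hand2 went with lower Tbx3, whereas the Tbx5 difference was -0.02 ± 0.10 log2 in HGMT minus GMT. A test of the difference between neighbouring genes was not made.

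Of 10 further T-box genes looked for, 8 were named on the array and 2 passed the filter. Tbx1, a regulator of the pharyngeal arches and second heart field, was lower than in 0F by -0.30 ± 0.07 log2 in GMT and by -0.21 to -0.29 in the other combinations, called in 5 of 6. On the arrays of set 2, Tbx1 was a low signal, below the array median throughout. With no filter, its limma calls in HNGMT (adjusted p = 0.060) and DMT (adjusted p = 0.063) were lost. Mga, which joins a T-box to a MAX-binding domain, was lower by -0.19 ± 0.06 log2 in GMT and was called in 3 of 6 combinations. Neither was called between combinations. Tbx6, Tbx19, Tbx21, Tbx22, Tbr1 and Eomes were below the array median on every array. In a limma fit with no filter, Eomes was higher with Hand2, as a low signal. It differed by 0.29 ± 0.05 log2 in HGMT minus GMT (adjusted p = 0.00025) and 0.38 ± 0.05 in HNGMT minus NGMT (adjusted p = 6.8e-06). The rest of these low genes were called in neither comparison.

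Genes that T-box factors are known to activate in the heart were called in both directions, as were all genes. Of 15 tested, 7 were higher and 6 lower in GMT than in 0F (35.9% and 24.1% of all genes), with a median of 0.10 log2, against 0.05 over all genes. Gja5, the connexin 40 gene and a known TBX5 target, was 3.24 ± 0.15 log2 higher in GMT, and Nppa 2.88 ± 0.13 higher. Both read lower in set 2 GMT than in set 1 GMT. Gja5 was 8.98 and 9.26 log2 in set 1 GMT, and 6.82, 6.82 and 7.45 in set 2 GMT. Nppa was 8.87 and 9.20 in set 1 GMT, and 7.56, 7.58 and 7.87 in set 2 GMT. Actc1, cardiac actin, was 3.97 ± 0.20 log2 higher. Among those lower, Sntb1 differed by -1.70 and Id2, a TBX5 target in the conduction system, by -1.33 log2.

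With Hand2, 5 of the 15 were higher and 5 lower in HGMT than in GMT (12.2% and 14.5% of all genes; median -0.21 log2, against -0.01 over all genes). Nppa read 6.13, 6.38 and 5.98 log2 in HGMT, against 7.56, 7.58 and 7.87 in GMT, without overlap. Its difference was -1.45 ± 0.12 log2 in HGMT minus GMT and -2.23 ± 0.12 in HNGMT minus NGMT, so that it was lower where Tbx20 was higher and Tbx3 lower. Fhl2, a LIM-domain partner of heart factors, was 1.54 log2 higher in HGMT and Hey2, a ventricular repressor, 0.73 higher. In DMT, 7 of the 15 were higher and 2 lower than in GMT (9.84% and 8.75% of all genes), led by Nppa at 3.76 ± 0.12 and Myh6, alpha myosin heavy chain, at 2.47 log2.

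Genes that TBX2 or TBX3 are known to repress were set beside those members. Of 5 tested, 4 were higher and 0 lower in GMT than in 0F (35.9% and 24.1% of all genes), where Tbx3 rose by 0.66 log2, with a median of 2.03 log2, against 0.05 over all genes. In HGMT, where Tbx3 was below GMT, 0 were higher and 3 lower than in GMT (12.2% and 14.5% of all genes). These were Nppa, Gja5 at -0.48 ± 0.14 and Gja1, connexin 43, at -0.27 ± 0.05. In set 2, Gja5 was a low signal, below the array median on every HGMT array and on GMT replicates 3 and 4. Nppa, Gja5 and Kcnj2 also stand in the list of activated targets.

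Of 16 tested partners and cofactors, 9 were higher and 4 lower in GMT than in 0F (35.9% and 24.1% of all genes), with a median of 0.20 log2, against 0.05 over all genes. Gata6, a paralogue of Gata4 that works with TBX5, was lower by -0.85 ± 0.10 log2 in GMT than in 0F. It was 0.59 ± 0.09 log2 higher in HGMT than in GMT, where 3 of the 16 were higher and 2 lower (12.2% and 14.5% of all genes). Lmcd1, a LIM-domain corepressor of GATA6, was 1.22 log2 higher in GMT than in 0F. Every delivered factor except TBX5 is among the 16 genes of this list, Hand2 and Myocd included. The counts for GMT minus 0F therefore take in Gata4 and Mef2c, which were delivered in GMT. Those for HGMT minus GMT take in Hand2.

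Across the 28 arrays, with each set's mean removed, the genes most like Tbx20 were Aldh3a1 (Pearson r = 0.98), Mal, Vamp5, Pcolce2 and Plxna4. Those most like Tbx3 were Nr4a1 (r = 0.96), Rnf19b, Tspan11, Gpd2 and Parvb, and those most like Tbx18 were Ntn4 (r = 0.95), Clip4, Dhrs3, Ift43 and Garem1. For Tbx15 the first was Mid1 (r = 0.94) and for Tbx5 Xylt2 (r = 0.91), while the highest values were 0.81 for Tbx4 (Cx3cl1) and 0.77 for Tbx2 (Sptan1). All 28 arrays share their 7 groups, so a high r may come from few group means, and genes and arrays are not independent points.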

How the data were processed

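Total RNA was labelled with biotin and hybridized to single-channel arrays, per the labels' protocols. The authors deposited 1 matrix of 35556 probe sets on 28 arrays in log2 signal, from 3.76 to 14.5 (0 columns not used). MAS5 is the tool named in the submitters' processing notes. Its version, and how signals were summarized and scaled, are not stated there. Arrays carry no read depth, and their number (3 to 6 a group) limits the precision.

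Groups came from the sample titles. Members and gene lists were chosen with earlier results of these data known. Sets of arrays were found from the mean distance between sorted values, at most 0.0486 log2 inside a set and at least 0.135 between sets. The fit carried that set as a term, and the 2-level series of the sample names was an alternative. The annotation table gave 1 symbol for 21789 probe sets, several for 1621 and none for 12146, and only the first were named. Where a gene had several probe sets, that with the highest mean stood for it. Genes above the array median on at least 3 arrays (12211) were fitted with limma 3.58.1 in R 4.3.3 (lmFit, contrasts, eBayes with trend), with group and set as terms on all 28 arrays, leaving 19 residual degrees of freedom. Two-sided p-values were adjusted over all tested genes of a comparison (Benjamini-Hochberg), and a gene was called below 0.05. The comparisons were 13 between groups, 8 pairs added after the data were seen to order the groups, and interaction contrasts. Intervals are at 95%. The script was tested on simulated data.

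The text names all members, other T-box genes, up to 4 called genes of a list in each comparison described, delivered factors and the 5 genes most like each member (fewer are printed for some); Sntb1 and Id2 lie outside that rule and were chosen after their values were seen. Marker sums are log2 of summed linear signal. Promoters came from a RefSeq table of GRCm38.p6. Alternatives covered normalization, series term, filters, added constant, sets alone, replicate blocks and leaving out each array. Same-numbered replicates of set 2 had a median correlation of deviations of 0.03 (30 pairs), against -0.02 for different numbers (60 pairs), so numbers were not taken to pair samples.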

Additional observations from a re-analysis of the deposited data

Results flagged for a closer look

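In groups of 4 to 10 arrays, each member was looked at for 1 array far from the rest of its group, as log2 signal minus the array median. Of 28 groups of values looked at, 3 held such an array. The rule's rate of about 1 in 20 by chance holds for arrays of 1 common distribution. GMT, NGMT and DMT pool arrays of 2 sets, and Tbx2 was identical on all DMNT arrays, so that rate is no guide here. All 3 were DMNT replicate 3. Tbx3 was lowest there, at 0.935, against 1.012 to 1.02 on the other DMNT arrays. Tbx4 was highest there, at 2.919, against 2.691 to 2.708. Tbx15 was also highest, at 3.519, against 3.351 to 3.354. The other DMNT arrays hold many identical values, which narrows the range these gaps are set against.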

How the results depend on the processing

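Of 35 called member differences, 25 kept their direction and call in every alternative run for them and 10 lost it in at least 1. The 28 calls against 0F ranged from 25 to 34, the 7 between combinations from 6 to 10 and the 0 interaction calls stayed at 0 when arrays were left out in turn. A series term of 2 levels, from the sample names, gave 17 calls between combinations and 4 interaction calls. It merges sets 2 and 3 and moves the median of all genes by 0.58 log2 in DMNT minus 0F, 0.41 in DMNT minus DMT and 0.53 in DMNT minus NGMT. Tbx3 then reversed to 0.54 in DMNT minus DMT and 0.54 in DMNT minus NGMT, and Tbx20 to 0.75 in DMNT minus DMT. With quantile normalization and no set term, DMNT minus NGMT reversed to -0.38 for Tbx5, -0.43 for Tbx15 and -0.033 for Tbx18, and the cause was not tested. With the title number as a replicate block, 25 calls against 0F and 5 between combinations were left, and the lost calls were Tbx18 in DMNT minus NGMT (0.62, adjusted p = 0.15), Tbx3 in DMNT minus 0F (0.54, adjusted p = 0.058) and DMT minus GMT (-0.15, adjusted p = 0.47), and Tbx5 in HGMT minus 0F (-0.29, adjusted p = 0.18) and DMT minus 0F (-0.26, adjusted p = 0.21). Same-numbered samples were not found to be paired. A filter of 9 arrays drops Tbx20 and left 23 and 5 calls.

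Counts of all genes called moved by over 1.5 times in some settings, and the member calls are read against them. The 2-level series term gave 4025 in HGMT minus 0F (6241 with the set term), 3877 in HNGMT minus 0F (6071), 10464 in DMNT minus 0F (5060), 33 in NGMT minus GMT (199), 1403 in HGMT minus GMT (3258), 6 in HNGMT minus HGMT (76), 1284 in HNGMT minus NGMT (3865), 11156 in DMNT minus DMT (9) and 11178 in DMNT minus NGMT (766). With quantile normalization over all arrays and no set term, 2 changes at once, these were 7787 in DMNT minus 0F, 4 in NGMT minus GMT, 2024 in HGMT minus GMT, 0 in HNGMT minus HGMT, 719 in DMNT minus DMT and 5416 in DMNT minus NGMT. HNGMT minus HGMT gave 42 with quantile normalization within sets, 44 with no filter and 42 with the stricter filter. Fits of 1 set gave 674 (set 1) and 1 (set 2) in NGMT minus GMT, 2080 in HGMT minus GMT, 1 in HNGMT minus HGMT, 2145 in HNGMT minus NGMT and 615 in DMNT minus DMT. The replicate block by title number gave 2088 in HGMT minus GMT, 19 in HNGMT minus HGMT, 1401 in HNGMT minus NGMT, 0 in DMNT minus DMT and 339 in DMNT minus NGMT. The replicate block within set 2 gave 2, 2024, 1 and 1999 in NGMT minus GMT, HGMT minus GMT, HNGMT minus HGMT and HNGMT minus NGMT. Without DMT replicate 4 and DMNT, a setting added after the data were seen, NGMT minus GMT gave 101 and HNGMT minus HGMT 6. Leaving out 1 array at a time gave 52 to 386 in NGMT minus GMT (lowest without GMT replicate 2), 1 to 3143 in HNGMT minus HGMT (highest without HNGMT replicate 3), 5 to 43 in DMNT minus DMT and 636 to 1173 in DMNT minus NGMT (both highest without HNGMT replicate 1).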
